A study of Mus musculus with 6 samples.

Results

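The 34 genes described here are photoreceptor genes: transcription factors of photoreceptor precursors and rods, the cone and rod phototransduction cascades, the proteins that regulate or chaperone those cascades, and proteins of the outer segment and the retinoid cycle. They were chosen by function as a named list, with earlier results of these data known. Of the probe sets that name a gene alone, the brightest over all 6 arrays was taken for that gene, and 32 of the 34 genes had such a probe set, of 12393 genes on the array that did. Nr2e3, a nuclear receptor of rods, and Cnga3, a subunit of the cone channel, had none and were not analysed here. The RNA came from whole eyeballs of mouse pups at postnatal day 1 (P1), 3 wild-type and 3 Brg1 cKO, on a mixed background, with 1 Affymetrix mouse genome array per sample. Brg1 cKO eyeballs came from Brg1 flox/flox pups carrying Le-Cre, a transgene driven by Pax6 regulatory sequence that is active in the head surface ectoderm and its descendants, the lens, cornea and eyelid epidermis, and not in the neural retina. The deleted gene, Smarca4, encodes Brg1, an ATPase of SWI/SNF chromatin remodeling complexes. The wild-type pups were stage-matched littermates. The study describes its controls as Brg1 flox/flox without Cre and does not say so of these arrays. It describes the deletion as incomplete in many embryos and also reports occasional deletion in the germline. Whether the retina of the Brg1 cKO samples kept Brg1 was not tested. No sample here carried Le-Cre without the floxed alleles. By the study's methods each sample was an individual eyeball.

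Photoreceptors turn light into a drop of cyclic GMP. Light activates an opsin, the opsin activates the G protein transducin, transducin releases phosphodiesterase 6 from its inhibitory subunit, and the fall of cyclic GMP closes a cation channel, while arrestins, RGS proteins and calcium sensors restore the dark state. In the mouse retina cones are born before birth and rods mostly around and after birth, so that precursors first switch on factors such as Otx2, Crx, Neurod1 and Nrl, and the rod cascade and outer segment follow during the first postnatal weeks. The question was therefore at which point of this programme the P1 eyeballs stood. It was also asked whether that point differed with Le-Cre, which targets Brg1 in the neighbouring surface ectoderm.

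None of the 32 photoreceptor genes passed the test between genotypes, an adjusted p under 0.05 in limma over all 22626 probe sets. At that threshold 0.508% of all probe sets passed, and of 12393 genes 53 were called higher and 33 lower. Of the 32, 1, Rgs9, had an unadjusted p under 0.05, against 8.40% of all probe sets. Differences, as log2 of Brg1 cKO minus wild type, lay between -0.47 for Gngt1 and 0.79 for Tulp1, and the smallest adjusted p was 0.561, for Rgs9. Of the 32 genes, 25 had a higher and 7 a lower mean in Brg1 cKO, against 52.9% of all genes with a higher mean, and the median difference was 0.22 against 0.02 over all genes. That median rested on a single sample. Brg1 cKO replicate 1 lay above the wild-type mean for 28 of the 32 genes, replicate 2 for 7 and replicate 3 for 21. Without replicate 1 the median was -0.02, with 11 of the 32 genes higher in Brg1 cKO. It was 0.39 without replicate 2 and 0.14 without wild-type replicate 1. In RNA of whole eyeballs, fewer photoreceptors and less of an RNA per photoreceptor cannot be told apart.

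The samples carried the tissues of the labels. Crystallins, the structural proteins of the lens, stood at the top of the scale in wild type (Cryba1 at log2 14.47), and markers of retinal progenitors and ganglion cells were high (Ccnd1 at 13.45, Stmn2 at 11.84). Smarca4 itself differed by 0.18 (SE 0.19, limma adjusted p = 0.866), and whether its probe set lies in the deleted exons is not known here. Median intensity was 169 to 185 over the 6 arrays, and 6 arrays set how precise the values below can be. Brg1 cKO replicate 1 came from a male and the other 5 samples from females, by Xist and Y-linked genes. Brg1 cKO replicate 2 had the lowest mean correlation with the wild-type arrays, 0.9615, a value across probe sets and not across independent samples.

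Levels are given as log2 of the RMA intensity, a scale on which the median of all values was 7.50 and the 25th percentile 4.84. Probe sets differ in how strongly they bind, so a position on this scale says how bright a probe set was and does not rank amounts of RNA between genes. In wild type 27 of the 32 photoreceptor genes lay above the 25th percentile and 5 below it. The 5 dim genes were Opn1mw, the medium-wavelength cone opsin, Arr3, cone arrestin, Gnat1, the alpha subunit of rod transducin, Pde6a, a catalytic subunit of the rod phosphodiesterase, and Cnga1, a subunit of the rod channel. Their wild-type means were 3.34, 3.20, 4.31, 2.86 and 3.23. Differences of these 5 genes lie at the dim end, where intensities move less than RNA does.

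Genes of the early cone and precursor group stood higher on the scale than genes of the late rod group. The early group held 11 measured genes (Crx, Prdm1, Rorb, Neurod1, Nrl, Opn1sw, Gnat2, Pde6c, Arr3, Rcvrn and Rbp3), with a median wild-type level of 9.52 and a median at percentile 74.5 of all probe sets. The late rod group held 13 (Gnat1, Gngt1, Pde6a, Pde6b, Pde6g, Cnga1, Sag, Guca1a, Rgs9, Prph2, Rom1, Rp1 and Abca4), with a median level of 6.44 and a median at percentile 39.1. Above the array median were 8 of the 11 early genes and 5 of the 13 late genes. The groups overlapped widely, from 3.20 for Arr3 to 11.83 for Neurod1 in the early and from 2.86 for Pde6a to 11.21 for Sag in the late group. By role, the median wild-type level was 10.55 for the 4 precursor factors, 6.90 for the 5 cone cascade genes and 7.16 for the 8 rod cascade genes. The cone cascade was thus not brighter than the rod cascade. Opn1mw, a cone gene at 3.34, was in neither the early nor the late group. The split is a description of brightness over probe sets and carries no test.

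**Figure D1:**
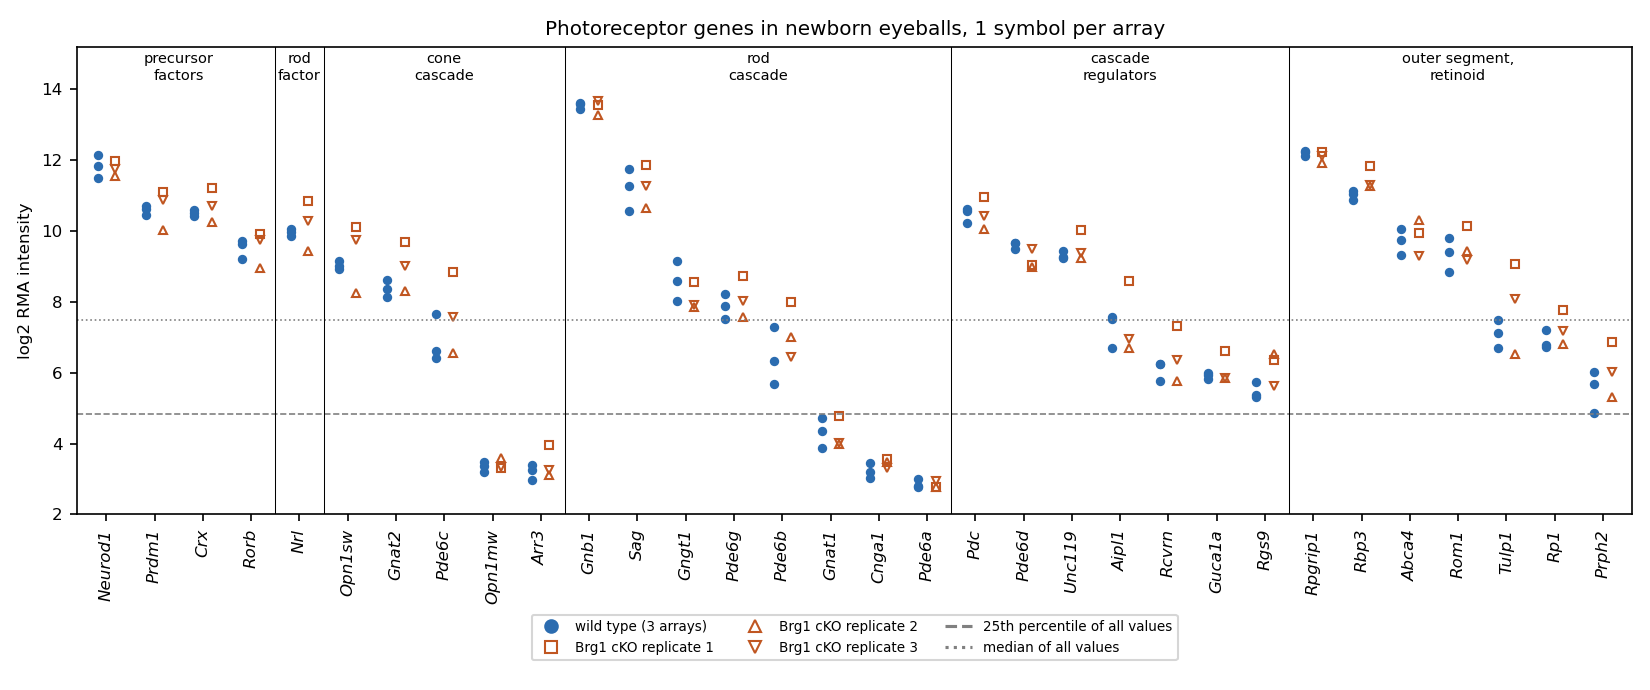
Level of each of the 32 measured photoreceptor genes in every sample, as log2 RMA intensity on the vertical axis, with genes grouped by role and ordered by wild-type mean, filled circles for the 3 wild-type and open symbols for the 3 Brg1 cKO arrays. The dashed line marks the 25th percentile (4.84) and the dotted line the median (7.50) of all values, and Opn1mw, Arr3, Gnat1, Cnga1 and Pde6a lie below the dashed line in wild type, while Brg1 cKO replicate 1 is the highest of the 3 Brg1 cKO symbols for 26 of the 32 genes.

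Promoters of 4 of these genes are shown because many photoreceptor promoters carry TAATCC, the core of the site bound by the homeodomain factors Crx and Otx2, and because the genes span the roles below: Crx itself, Rbp3 of the retinoid cycle, Gnat2 of the cone cascade and Gngt1 of the rod cascade. Each window runs from 250 bases before to 50 bases after the gene's start, 5′ to 3′ on the gene's strand, in the mouse assembly GRCm38.p6 of RefSeq. The windows are chr7:15879906-15880205 on the minus strand for Crx and, on the plus strand, chr14:33953753-33954052 for Rbp3, chr3:108092816-108093115 for Gnat2 and chr6:3993758-3994057 for Gngt1. Capitals mark TAATCC, which reads GGATTA where it lies on the other strand, and TGCTGA or its reverse TCAGCA, a part of the Maf element that Nrl binds.
Crx: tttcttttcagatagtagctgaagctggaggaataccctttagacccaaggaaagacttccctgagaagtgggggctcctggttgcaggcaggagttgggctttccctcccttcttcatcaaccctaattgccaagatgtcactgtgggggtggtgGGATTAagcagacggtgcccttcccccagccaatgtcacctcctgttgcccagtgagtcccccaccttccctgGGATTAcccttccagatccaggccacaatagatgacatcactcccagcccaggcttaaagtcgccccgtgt
Rbp3: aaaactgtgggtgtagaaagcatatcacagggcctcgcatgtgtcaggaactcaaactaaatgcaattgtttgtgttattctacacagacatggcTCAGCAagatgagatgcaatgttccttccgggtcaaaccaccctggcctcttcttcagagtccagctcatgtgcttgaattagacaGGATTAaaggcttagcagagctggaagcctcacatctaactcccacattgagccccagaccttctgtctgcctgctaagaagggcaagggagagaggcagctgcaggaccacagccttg
Gnat2: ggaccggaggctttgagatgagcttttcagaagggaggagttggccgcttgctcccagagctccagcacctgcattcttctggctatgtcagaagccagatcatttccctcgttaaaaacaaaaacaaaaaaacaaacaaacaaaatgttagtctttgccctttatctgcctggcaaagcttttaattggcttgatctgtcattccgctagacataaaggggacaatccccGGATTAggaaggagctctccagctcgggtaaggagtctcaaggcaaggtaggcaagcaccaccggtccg
Gngt1: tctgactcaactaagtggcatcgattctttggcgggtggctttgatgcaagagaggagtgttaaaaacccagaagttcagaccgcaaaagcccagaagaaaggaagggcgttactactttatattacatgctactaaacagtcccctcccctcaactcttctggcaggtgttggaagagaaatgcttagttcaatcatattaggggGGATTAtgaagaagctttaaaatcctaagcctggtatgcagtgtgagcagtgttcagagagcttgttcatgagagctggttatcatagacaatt

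Both strands were searched. The forward and reverse forms of TAATCC can share the letters TA, and neither form can overlap TGCTGA. In the table used, 28 of the 34 genes had a promoter, in 32 windows, and Pde6g, Rp1, Gnat1, Pde6a, Rcvrn and Pde6c had none. TAATCC was present in 11 of the 28 genes, or 39.3%, against 8.14% of 27025 genes with a promoter in the table. These were Abca4, Aipl1, Cnga1, Crx, Gnat2, Gngt1, Guca1a, Rbp3, Rpgrip1, Sag and Unc119. They held 13 sites, 12 of them written GGATTA on the gene's strand and 11 of them within 120 bases before the start. In the windows above, the sites lay at -94 to -89 and -21 to -16 from the start of Crx, at -69 to -64 for Rbp3, at -19 to -14 for Gnat2 and at -44 to -39 for Gngt1. TGCTGA was present in 10 of the 28 genes (35.7%), against 21.7% of all genes. A match is a run of letters and not a measured binding site. The median log2 difference between genotypes was 0.19 over 11 measured genes that held TAATCC and 0.22 over 15 whose window did not.

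Transcription factors of photoreceptor precursors were bright in wild type, and none of those measured was called between genotypes. Their limma 95% intervals were -0.38 to 0.82 for Crx, -0.61 to 0.76 for Prdm1, -0.67 to 0.70 for Rorb and -0.60 to 0.45 for Neurod1. Crx, the homeodomain factor that activates most photoreceptor genes, read 10.50, 10.60 and 10.43 in the wild-type and 11.22, 10.26 and 10.72 in the Brg1 cKO samples, here and below in the order of replicates 1 to 3. The Brg1 cKO values lay on both sides of the narrow wild-type range, and the difference was 0.22 (SE 0.26, limma adjusted p = 0.874). A dimmer second probe set of Crx differed by 0.54 (SE 0.26, adjusted p = 0.660). Neurod1, a basic helix-loop-helix factor of photoreceptors that amacrine cells also use, read 11.84, 12.15 and 11.51 in the wild-type and 11.97, 11.54 and 11.76 in the Brg1 cKO samples, with every Brg1 cKO value inside the wild-type range. Its dimmer second probe set differed by -0.23 (SE 0.31), with Brg1 cKO replicate 2 at 9.22, below the wild-type values of 10.33, 10.16 and 9.93. Prdm1, which holds precursors to the photoreceptor fate against the bipolar fate, differed by 0.07 and Rorb, a nuclear receptor needed for rod fate, by 0.02. In all 4 genes Brg1 cKO replicate 1 lay above and replicate 2 below the wild-type mean. Nrl, the leucine zipper factor that directs precursors to the rod fate, read 9.86, 9.98 and 10.06 in the wild-type and 10.84, 9.44 and 10.29 in the Brg1 cKO samples. Its wild-type SD was 0.10 and its Brg1 cKO SD 0.71, so that replicates 1 and 2 lay on opposite sides of all wild-type values, and the difference of 0.22 (SE 0.34) had an adjusted p of 0.910.

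Of the 5 cone cascade genes measured, 2 of them near the low end of the scale, 0 were called, against 0.508% of all probe sets. The mean was higher in Brg1 cKO for all 5, and without Brg1 cKO replicate 1 Opn1sw and Arr3 were at -0.025 and -0.017 and the other 3 stayed higher. Opn1sw, the short-wavelength cone opsin, read 9.01, 9.15 and 8.92 in the wild-type and 10.12, 8.26 and 9.74 in the Brg1 cKO samples. Brg1 cKO replicates 1 and 3 lay above and replicate 2 below all wild-type values, and the difference was 0.35 (SE 0.45, limma adjusted p = 0.891), while a dimmer probe set of Opn1sw gave -0.25 (SE 0.47). Gnat2, the alpha subunit of cone transducin, read 8.36, 8.62 and 8.13 in the wild-type and 9.69, 8.30 and 9.00 in the Brg1 cKO samples. The same pair of samples stood out upward, and replicate 2 stayed within the wild-type range (difference 0.63, SE 0.35, adjusted p = 0.725). Without replicate 1 the difference of Gnat2 was 0.28 and without replicate 2 it was 0.98. Pde6c, the catalytic subunit of the cone phosphodiesterase, read 6.63, 6.43 and 7.65 in the wild-type and 8.83, 6.55 and 7.56 in the Brg1 cKO samples, and only replicate 1 lay outside the wild-type range. Its difference was 0.75 (SE 0.58, adjusted p = 0.808), and it was 0.15 without replicate 1 and 1.29 without replicate 2. Arr3 and Opn1mw, both near the low end of the scale, differed by 0.25 and 0.07. A second probe set of Arr3, also near the low end, gave -0.04 (SE 0.17).

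Rod cascade genes went both ways. Of the 8, 4 had a higher and 4 a lower mean in Brg1 cKO, with a median difference of 0.01. Gngt1, the gamma subunit of rod transducin, read 8.03, 9.15 and 8.58 in the wild-type and 8.57, 7.85 and 7.92 in the Brg1 cKO samples. Its difference of -0.47 was the lowest of the 32 genes (SE 0.33, limma adjusted p = 0.785), and it was -0.19 without wild-type replicate 2 and -0.75 without wild-type replicate 1. The next brightest probe sets of Gngt1 gave -0.58 and -0.57, and a dim one gave 0.16. Pde6b, a catalytic subunit of the rod phosphodiesterase, read 6.34, 7.30 and 5.69 in the wild-type and 7.99, 7.003 and 6.45 in the Brg1 cKO samples, and the wild-type values alone lay farther apart than the difference of 0.70 (SE 0.50, adjusted p = 0.788), which was 0.28 without Brg1 cKO replicate 1 and 1.13 without wild-type replicate 2. Gnb1, the beta subunit of rod transducin, which many other cells also make, was the brightest of the list with 13.44, 13.59 and 13.62 in the wild-type and 13.56, 13.28 and 13.66 in the Brg1 cKO samples. Sag, rod arrestin, differed by 0.07, and its wild-type values of 10.58, 11.28 and 11.75 spanned nearly the whole range of the Brg1 cKO values of 11.88, 10.66 and 11.28. Pde6g, the inhibitory subunit of the phosphodiesterase, differed by 0.23. The dim genes Gnat1, Pde6a and Cnga1 differed by -0.04, -0.04 and 0.23.

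Among the 7 genes that regulate or chaperone the cascade, Rgs9 and Pde6d came closest to the threshold. Rgs9, which speeds the shut-off of transducin, read 5.32, 5.37 and 5.75 in the wild-type and 6.35, 6.52 and 5.62 in the Brg1 cKO samples. Replicates 1 and 2 lay above all wild-type values and replicate 3 among them. The difference of 0.68 (SE 0.27) had an unadjusted limma p of 0.0396 and an adjusted p of 0.561, and 8.40% of all probe sets had an unadjusted p under 0.05. A dimmer probe set of Rgs9 gave -0.15, near the low end of the scale. Pde6d, a prenyl-binding protein that carries phosphodiesterase and other lipid-bearing proteins to the outer segment and is made by many cell types, read 9.51, 9.66 and 9.66 in the wild-type and 9.06, 8.98 and 9.49 in the Brg1 cKO samples. All 3 Brg1 cKO values lay below the 3 wild-type values, and Pde6d was the only gene of the 32 for which they did, against 6.38% of all genes. Its difference was -0.43 (SE 0.20, limma adjusted p = 0.632), and the exact two-sided permutation test gave 0.1, the smallest p that 3 against 3 allow.

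Pdc, phosducin, which binds the beta and gamma subunits of transducin, was the brightest of this group at 10.61, 10.56 and 10.23 in the wild-type and 10.96, 10.06 and 10.41 in the Brg1 cKO samples, a difference of 0.01. Unc119, which carries the lipid-bearing transducin alpha subunit, differed by 0.24. The phosphodiesterase chaperone Aipl1 differed by 0.16. Recoverin (Rcvrn), a calcium sensor that restrains opsin phosphorylation, differed by 0.39, and Guca1a, a calcium sensor of guanylate cyclase, by 0.19. Brg1 cKO replicate 1 lay above all wild-type values for each of these 5 genes, at 8.58 for Aipl1 against a wild-type mean of 7.25 and at 7.31 for Rcvrn against 6.08.

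Of the 7 outer segment and retinoid cycle genes, 6 had a higher mean in Brg1 cKO. Rbp3, the retinoid-binding protein of the space between photoreceptors and pigment epithelium, read 10.87, 11.15 and 11.04 in the wild-type and 11.83, 11.29 and 11.31 in the Brg1 cKO samples. It was the only gene of the 32 whose 3 Brg1 cKO values all lay above the 3 wild-type values, which 8.46% of all genes did. The difference was 0.46 (SE 0.21, limma adjusted p = 0.638; 0.28 without replicate 1), and the exact permutation p was again 0.1. Tulp1, which takes part in protein transport to the outer segment, had the largest difference of the list, 0.79, and the widest spread. It read 7.49, 6.69 and 7.11 in the wild-type and 9.06, 6.53 and 8.07 in the Brg1 cKO samples, so that replicates 1 and 3 lay above and replicate 2 below all wild-type values (SE 0.59, adjusted p = 0.800). The difference of Tulp1 was 0.21 without replicate 1 and 1.47 without replicate 2. Rpgrip1, a protein of the connecting cilium, read 12.28, 12.23 and 12.11 in the wild-type and 12.23, 11.92 and 12.13 in the Brg1 cKO samples, a difference of -0.11, and its 3 dimmer probe sets gave 0.21, -0.21 and 0.18. Prph2 and Rom1, tetraspanins of the disc rim, differed by 0.54 and 0.24 (0.14 and -0.04 without Brg1 cKO replicate 1), Rp1, a microtubule protein of the outer segment, by 0.35 (0.09 without that sample) and Abca4, the retinoid flippase of the disc, by 0.16.

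**Figure D2:**
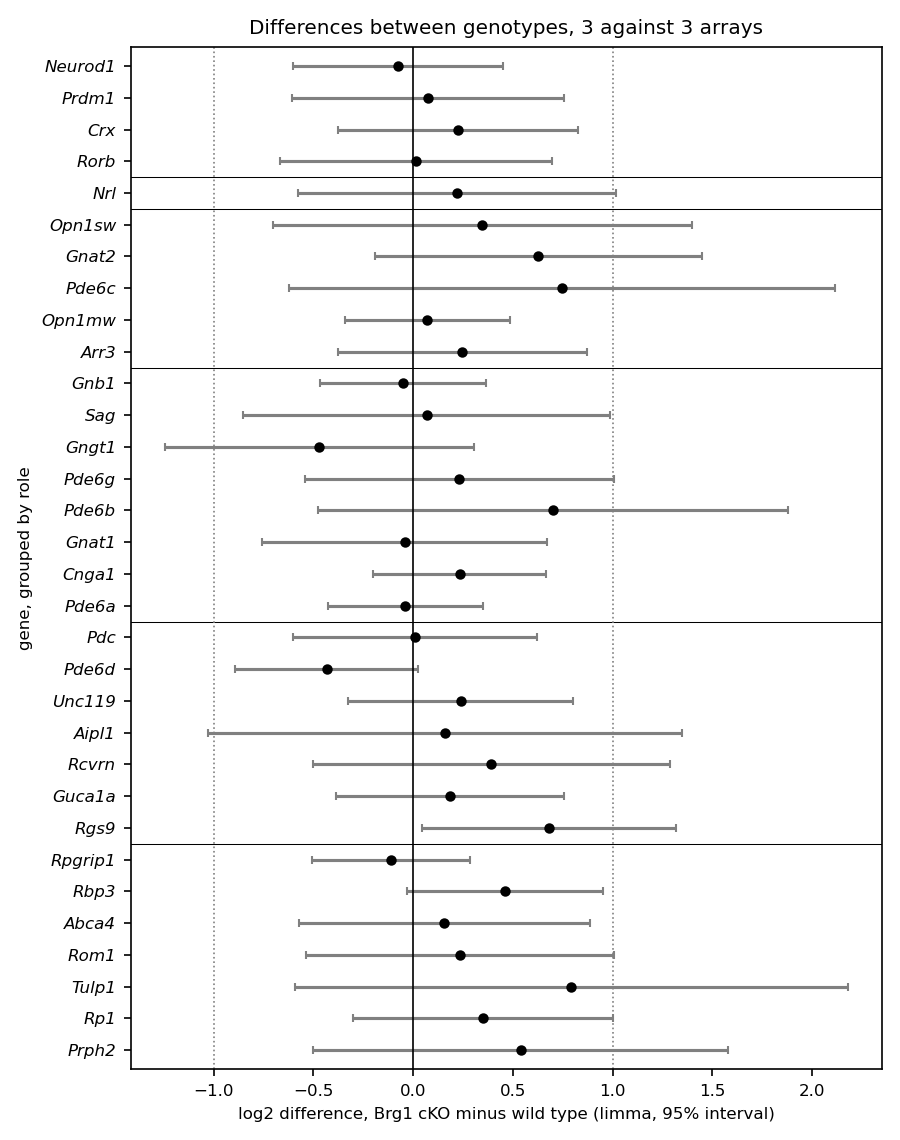
Difference of each photoreceptor gene between genotypes, as log2 of Brg1 cKO minus wild type on the horizontal axis, with the limma 95% interval from 3 against 3 arrays, grouped by role as in the plot of levels. The intervals of 31 of the 32 genes include 0, the exception being Rgs9, whose adjusted p was 0.561, and dotted lines mark a log2 difference of 1 in either direction.

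The width of the intervals is given for the 27 genes above the 25th percentile, since the narrow intervals of the 5 dim genes hold for intensity at the low end of the scale and say little of RNA. For 14 of the 27 the 95% interval lay wholly within 1 log2 unit on either side of 0. For 25 it excluded a fall of 1 log2 unit in intensity, Gngt1 and Aipl1 being the exceptions, and for 15 it excluded a rise of that size. The cone cascade genes Opn1sw, Gnat2 and Pde6c had intervals of -0.70 to 1.40, -0.19 to 1.45 and -0.62 to 2.11. They and Tulp1, with -0.59 to 2.18, were among those open to a doubling. Under a looser rule, template matching without adjustment and with a fold over 1.5, 0 of the 32 genes were selected. Of the 46 other photoreceptor genes described below it selected 1, Rdh12. The rule took 541 of 12393 genes with 1 probe set each, and 3.62% of all probe sets.

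The photoreceptor genes differed more between Brg1 cKO samples than between genotypes, and they did so together. The shift of a Brg1 cKO sample was the median over genes of its distance from the wild-type mean, and each wild-type sample was set against the mean of the remaining pair. Over the 32 genes the shifts were -0.15, 0.12 and 0.03 in the wild-type and 0.71, -0.28 and 0.09 in the Brg1 cKO samples, each in the order of replicates. Brg1 cKO replicate 1 thus stood apart upward from all other samples. Over all genes the Brg1 cKO shifts were 0.07, 0.00 and 0.00, and the share of genes above the wild-type mean was 57%, 50% and 49.5%. Brg1 cKO replicate 1 was the highest of the 3 for 26 of the 32 genes, against 38.6% of all genes, and replicate 2 the lowest for 24, against 37.3%. In replicate 1, 24 of the 32 genes lay above all 3 wild-type values, against 37.6% of all genes. In replicate 2, 12 lay below all 3, against 33.6%, and in replicate 3, 10 lay above, against 26%. The SD over replicates was larger in Brg1 cKO for 27 of the 32 genes, with medians of 0.48 in Brg1 cKO and 0.24 in wild type, and it was larger in Brg1 cKO for 8275 of 12393 genes. It was also larger for 12 of 15 retinal progenitor, 11 of 13 ganglion cell and 10 of 14 amacrine and horizontal markers. For bipolar, glial and pigment epithelium markers the counts were 7 of 12, 6 of 11 and 4 of 13. A larger spread was thus not particular to photoreceptor genes. The genes share these samples, so their number adds no replicates.

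**Figure D3:**
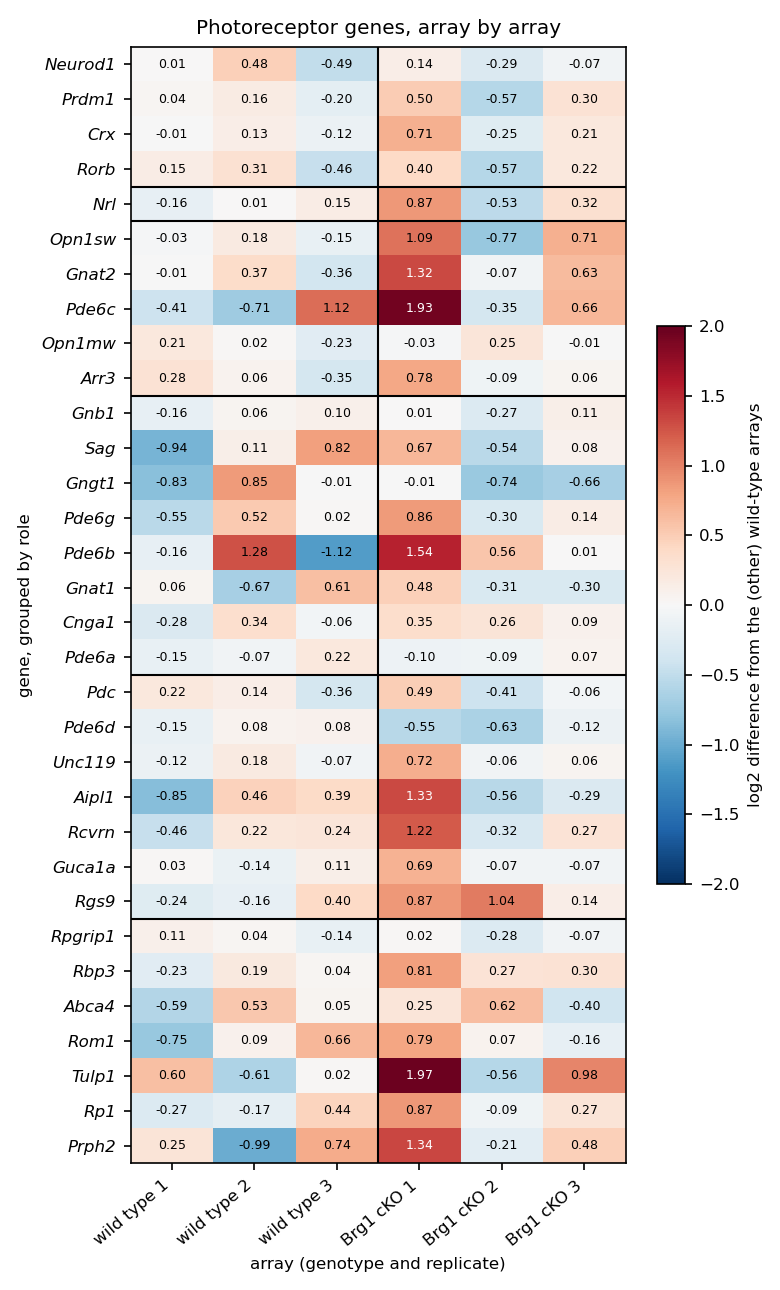
Difference of each photoreceptor gene in every sample from the wild-type mean (Brg1 cKO samples) or from the remaining pair of wild-type samples (wild-type samples), in log2 units by colour and printed in each cell, genes in rows grouped by role and samples in columns. The column of Brg1 cKO replicate 1 is positive for 28 of the 32 genes, that of replicate 2 for 7 and that of replicate 3 for 21.

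The early and late groups had shifts of the same sign in each Brg1 cKO sample. Early genes had shifts of 0.81, -0.32 and 0.30 in the Brg1 cKO samples, with 11, 1 and 10 of 11 above the wild-type mean. Late rod genes shifted by 0.69, -0.09 and 0.07, with 11, 5 and 8 of 13 above. Among wild-type samples the early genes shifted by -0.01, 0.18 and -0.15 and the late genes by -0.27, 0.09 and 0.22, so that wild-type replicate 3 had the lowest early and the highest late shift. The largest rises in Brg1 cKO replicate 1 were those of Tulp1 (1.97), Pde6c (1.93), Pde6b (1.54), Prph2 (1.34), Aipl1 (1.33) and Gnat2 (1.32), and the strongest falls in replicate 2 were those of Opn1sw (-0.77), Gngt1 (-0.74) and Pde6d (-0.63). Against the list, Pde6d fell furthest in replicate 1, at -0.55. In replicate 2, where 7 of the 32 genes lay above the wild-type mean, Rgs9 (1.04), Abca4 (0.62) and Pde6b (0.56) rose most. Without Brg1 cKO replicate 1, the median difference between genotypes was -0.02 for the early and -0.01 for the late group, against 0.25 and 0.23 with it, and without replicate 2 it was 0.56 and 0.32. Without wild-type replicate 1 the late group's median was 0.05.

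Other retinal lists varied between the same samples. Retinal progenitor markers, 15 genes, had shifts of 0.19, -0.22 and -0.16 in the Brg1 cKO samples, ganglion cell markers, 13 genes, by 0.27, -0.33 and 0.23, amacrine and horizontal cell markers, 14 genes, by 0.20, -0.83 and -0.01, and bipolar markers, 12 genes, by 0.27, -0.12 and -0.09. Markers of Müller glia and astrocytes, 11 genes, shifted by 0.29, 0.52 and -0.03 and those of the pigment epithelium, 13 genes, by 0.27, -0.07 and 0.14. Replicate 1 thus lay above the wild-type mean in all 6 lists, by 0.19 to 0.29, and replicate 2 below it in 5, the glial list being the exception. Wild-type samples of these lists reached 0.20 for amacrine and horizontal and 0.28 for glial markers, so that replicate 1 was level with a wild-type sample there. In the progenitor, ganglion cell, bipolar and pigment epithelium lists replicate 1 was the highest of all samples. When each sample was instead centred on the mean of 63 neural retina genes that were not photoreceptor genes, the photoreceptor shift was 0.50 in Brg1 cKO replicate 1, -0.05 in replicate 2 and 0.08 in replicate 3, with 25, 14 and 20 of 32 genes above the wild-type mean. Wild-type samples then lay between -0.10 and 0.06. On this scale replicate 1 stayed apart from the other samples and replicate 2 did not. The 63 genes are not all confined to the neural retina, Pax6 being also in the cornea and epidermis list. Of the 63, 29 had a higher and 34 a lower mean in Brg1 cKO. What other tissues add to this centring was not tested. Median differences between genotypes were -0.16 for progenitor, 0.08 for ganglion cell, -0.20 for amacrine and horizontal, -0.03 for bipolar, 0.11 for glial and 0.08 for pigment epithelium markers. Of these lists only Calb1, the calcium-binding protein calbindin of horizontal and some amacrine cells, was called (higher by log2 2.004, SE 0.24, limma adjusted p = 0.0217). Over all probe sets 0.508% were called.

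**Figure D4:**
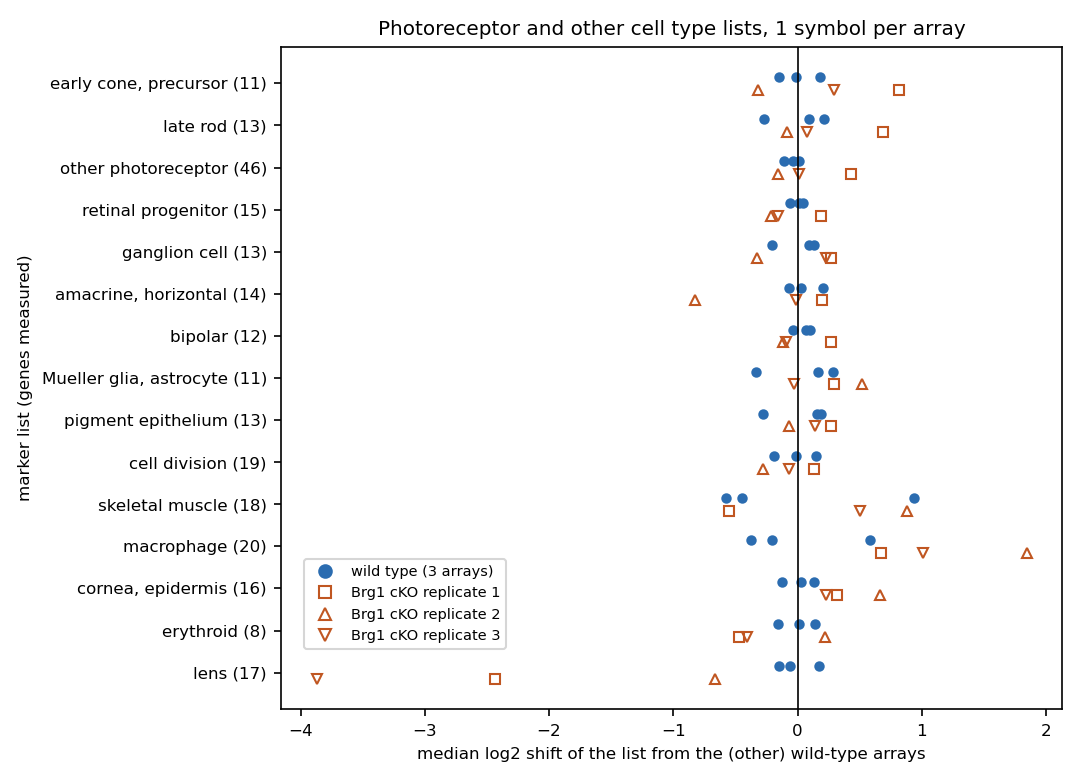
Median log2 shift of each marker list (vertical axis, with the number of genes measured) in every sample, from the wild-type mean for the 3 Brg1 cKO samples (open symbols) and from the other wild-type samples for the 3 wild-type samples (filled circles). In the early photoreceptor, late rod and other photoreceptor lists Brg1 cKO replicate 1 lies to the right of all other samples, at 0.81, 0.69 and 0.43. It also does so, by less, in the retinal progenitor, ganglion cell, bipolar and pigment epithelium lists, at 0.19, 0.27, 0.27 and 0.27. The lens list lies between -0.67 and -3.87 in the Brg1 cKO samples.

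Tissues outside the neural retina differed between the same samples, and their part in the photoreceptor values was not tested. All 17 lens genes had a lower mean in Brg1 cKO, with list means of 12.66 to 12.86 in wild type against 10.18, 11.76 and 8.96 in Brg1 cKO replicates 1 to 3. For 16 of the 17 all Brg1 cKO values lay below all wild-type values, against 6.38% of all genes. An unadjusted limma p under 0.05 was reached by 15, against 8.40% of all probe sets. At the adjusted threshold, which 0.508% of all probe sets passed, 1 was called. It was Gja3, a connexin of lens fibers (-3.15, SE 0.43, limma adjusted p = 0.0319). All 20 macrophage genes had a higher mean, with list means of 6.89 to 7.49 in the wild-type and 8.03, 9.04 and 8.40 in the Brg1 cKO samples, and 2 were called, Cd14 and Mpeg1. Brg1 cKO replicate 2, the lowest for photoreceptor genes, was thus the least reduced in lens and the highest in macrophage genes. The 18 skeletal muscle genes had list means of 10.53, 10.74 and 11.56 in the wild-type and 10.28, 11.91 and 11.41 in the Brg1 cKO samples, so that muscle was lowest in replicate 1 and highest in replicate 2. Wild-type replicate 3 had 18 of 18 muscle genes above the other wild-type samples and a photoreceptor shift of 0.03. The 16 cornea and epidermis genes had a median difference of 0.38, with 4 called higher and 1 called lower, the 19 cell division genes of -0.09 and the 8 erythroid genes of -0.15. RMA gives no value of 0, so none of these markers was at 0. The log2 difference between the 3′ and 5′ actin control probe sets, a gap that grows when RNA is degraded, was 1.12, 1.01 and 0.93 in the wild-type and 1.28, 1.34 and 0.98 in the Brg1 cKO samples. Only replicate 1 was male, and sex and sample cannot be told apart there.

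Other photoreceptor genes came from a wider list of factors, cascade members and structural proteins. Of 70 listed, 46 had a probe set of their own, and 0 were called in either direction, against 0.508% of all probe sets. An unadjusted limma p under 0.05 was reached by 1 of the 46, against 8.40% of all probe sets. Of the 46, 29 had a higher and 17 a lower mean in Brg1 cKO, and the median difference was 0.07. Their shifts were 0.43, -0.15 and 0.01 in the Brg1 cKO samples, with 39, 16 and 25 of 46 above the wild-type mean, so that replicate 1 was again the highest and replicate 2 the lowest. Otx2, the homeodomain factor upstream of Crx, was the brightest at 12.22 in wild type and differed by 0.10. Rdh12, a retinol dehydrogenase that clears retinal in photoreceptors, had the smallest p of the 46. It read 5.02, 5.39 and 5.50 in the wild-type and 6.55, 8.06 and 6.5005 in the Brg1 cKO samples, and the groups did not overlap (difference 1.73, SE 0.42, limma adjusted p = 0.222). Rdh12 was the 1 gene of the 46 that template matching selected, against 3.62% of all probe sets. Unlike most of the photoreceptor genes, Rdh12 was highest in Brg1 cKO replicate 2. Cdhr1, a cadherin at the base of the outer segment, read 9.81, 9.87 and 9.80 in the wild-type and 10.79, 9.99 and 10.18 in the Brg1 cKO samples, again without overlap (0.49, SE 0.24, adjusted p = 0.663). Of the 46 genes, 2 lay higher and 0 lower in Brg1 cKO without overlap, against 8.46% and 6.38% of all genes. Rxrg, a nuclear receptor of cones, differed by 0.52, Onecut1, a factor of early cone and horizontal precursors, by -0.64, Slc24a1, the rod sodium, calcium and potassium exchanger, by 0.37 and Cacna1f, the calcium channel of the photoreceptor synapse, by 0.84, with adjusted p between 0.697 and 0.764. Without Brg1 cKO replicate 1 the differences of Cdhr1, Rxrg, Slc24a1 and Cacna1f were 0.26, 0.25, 0.18 and 0.23.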

How the data were processed

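Whole eyeballs of 3 wild-type and 3 Brg1 cKO pups were profiled, grouped and numbered as in the labels. Per the labels, 50 ng of total RNA went through NuGEN Ovation amplification and biotin labelling. The deposited values are linear intensities that the authors made with RMA, which adjusts background, equalises arrays and summarises probes, and which compresses both ends of the scale. Its version was not given in the sources. Of 22690 rows, 64 controls were left out, and log2 intensities of 22626 probe sets were used. The platform's annotation, which can be old, names 1 gene for 20380 of them, several for 691 and none for 1555.

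Genotypes were compared two-sided with limma 3.58.1 (R 4.3.3) on a model of genotype alone, with Benjamini-Hochberg adjustment over all probe sets. The script was tested on simulated data. Exact permutation tests used the 6 values of a gene. Values in every array are given for genes whose groups did not overlap and, in each role, for the 2 with the smallest p and the 1 with the highest wild-type mean, Sag being added after its values were seen. Of the other photoreceptor genes the 6 with the smallest p are named, Otx2 being added after its values were seen. The members, lists and tests were chosen with earlier results of these data known. Alternatives were a replicate block, averaged probe sets, a filter on dim probe sets, other centring, quantile normalization, an offset of 32, a variance trend, array weights and leaving out each array.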

Additional observations from a re-analysis of the deposited data

How the results depend on the processing

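Under every alternative fitted, 0 of the measured photoreceptor genes passed the adjusted threshold, and the smallest adjusted p of any of them was 0.183. At an unadjusted limma p under 0.05, 1 passed, Rgs9, against 8.40% of all probe sets. The number of probe sets called was 115, and it was 45 with a replicate block, 16 with an offset of 32 before log2, 190 with array weights, 820 by template matching, 1900 at an unadjusted p under 0.05 and 24 to 216 when an array was left out. Whether same-numbered samples were paired, for example as littermates, is not stated in the labels. Correlations of the deviations of same-numbered samples were 0.06, 0.08 and 0.13. They were not set against differently numbered samples and do not settle it. The replicate block changed no call among the photoreceptor genes, 0 with it and 0 without it.

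The median difference of 0.22 ranged from -0.02 to 0.39 when an array was left out, -0.02 without Brg1 cKO replicate 1, and from 0.15 to 0.23 under the other alternatives. Of 475 differences of single genes under an alternative, 439 kept their sign and 36 turned, 14 of them without Brg1 cKO replicate 1, and 11 genes kept their sign throughout. With all arrays, Gnat1 turned to 0.024 under quantile normalization, Pdc to -0.037 and Rorb to -0.031 with arrays median-centred, and Rpgrip1 to 0.018 with probe sets averaged. When an array was left out, the differences that turned ranged as follows. Crx ranged from -0.019 to 0.46, Prdm1 from -0.14 to 0.40, Rorb from -0.18 to 0.31, Neurod1 from -0.24 to 0.086 and Nrl from -0.11 to 0.60. Opn1sw ranged from -0.025 to 0.90, Opn1mw from -0.018 to 0.14 and Arr3 from -0.017 to 0.42. Gnat1 ranged from -0.30 to 0.16, Gnb1 from -0.13 to 0.061, Pde6a from -0.095 to 0.033, Pde6g from -0.082 to 0.50 and Sag from -0.24 to 0.38. Rcvrn ranged from -0.023 to 0.75, Pdc from -0.23 to 0.22, Guca1a from -0.067 to 0.31, Unc119 from -0.0033 to 0.39 and Aipl1 from -0.43 to 0.52. Rom1 ranged from -0.043 to 0.46 and Abca4 from -0.075 to 0.43. Of the genes that kept their sign, Gnat2 ranged from 0.28 to 0.98, Pde6c from 0.15 to 1.29, Gngt1 from -0.75 to -0.19, Pde6b from 0.28 to 1.13, Tulp1 from 0.21 to 1.47, Prph2 from 0.14 to 0.91, Rp1 from 0.089 to 0.57, Rbp3 from 0.28 to 0.56, Rgs9 from 0.50 to 0.95, Cnga1 from 0.14 to 0.35 and Pde6d from -0.59 to -0.34. The cause of these turns was not tested beyond the array left out. Of the dim genes, those below the 25th percentile were not fitted under the filter. With 3 arrays a group, the 95% interval of a photoreceptor gene reached 0.68 log2 units to either side in the median of the 32 genes.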
